A study of Mus musculus with 4 samples.

Results

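The MHC class II genes H2-Aa, H2-Ab1, H2-Eb1, Cd74, H2-DMa, H2-DMb1 and Ciita were followed across 8 slices of injured and resting mouse brain. They were taken by gene symbol and are 7 of the 32285 genes in the count matrices. MHC class II molecules carry peptides from engulfed material to the cell surface and show them to CD4+ T cells. H2-Aa encodes the alpha chain of H2-A, H2-Ab1 encodes its beta chain, and H2-Eb1 encodes the beta chain of H2-E. Cd74, the invariant chain, guides new class II molecules to the endosome, where H2-DMa and H2-DMb1, the chains of H2-DM, help exchange its remnant for antigenic peptides. Ciita encodes the transactivator that binds the RFX and NF-Y complexes on class II promoters. In resting brain tissue class II protein is known mainly from cells at the borders, and in injured brain from macrophages, dendritic cells, B cells and activated microglia.

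The slices came from Visium capture areas, on which barcoded spots capture messenger RNA from the tissue above them, and 1 spot can hold several cells. Of 4 areas, each with 2 slices, 1 held wild-type brain at rest and at 2 days after photothrombotic (PT) injury (2 dpi), 1 held 2 wild-type slices at 7 dpi, and 1 held a pair of wild-type slices taken at 21 dpi. The last area carried a pair of slices, also at 21 dpi, from Cthrc1(creER); R26(DTA) mice, here called deleter, in which a Cthrc1-driven, inducible Cre is meant to switch on a toxin. The study's methods describe the deletion as undetectable and state that these mice were discarded once a first clustering was done. Over whole slices Cthrc1, the gene that drives the Cre, was at 0.0638 and 0.0895 unique molecular identifiers (UMIs) per 10000 in deleter slices. It was at 0.124 and 0.120 in wild type at the same time and at 0.0942 at rest. In the fibrotic spots defined below it was at 0.101 and 0.132 in deleter slices and at 0.219 and 0.175 in wild type. The study reports that fibroblast Cthrc1 expression peaks early and is sparse later, so these levels cannot show whether deletion took place. The methods give male and female mice of 7 to 21 weeks for all experiments, and 1 slice is taken as 1 mouse. The resting slice and the one at 2 dpi were told apart by the outline of the tissue and not by expression. Spots with at least 5 Col1a1 UMIs per 10000 are called fibrotic, those at distance 1 on the hexagonal grid adjacent, those at 2 to 3 near, and those at 4 or more distant. Fibrotic spots numbered 3 at rest, 26 at 2 dpi, 112 and 392 at 7 dpi, 170 and 203 at 21 dpi, and 193 and 274 in deleter slices.

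Slices held 11332780 to 23677298 UMIs. The median was 12447 to 16158 UMIs per spot in 7 slices and 2633.5 at 2 dpi, where 375 of 1726 spots held under 1000. Xist, a transcript of the inactive X chromosome, had 1281 to 1597 UMIs at 7 dpi and 1 to 4 at 21 dpi in wild type, while the Y-linked Ddx3y had 0 to 1 and 805 to 1195. Time, capture area and this pattern therefore cannot be told apart between 7 and 21 dpi. The deleter slices held 1 slice of each pattern, with 1033 and 19 Xist UMIs. All levels below are UMIs of a gene per 10000 UMIs of the same spots. In such sums, more cells of a type and more RNA per cell cannot be told apart.

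The proximal promoters of class II genes carry a conserved pair of elements, the X box bound by RFX and the Y box bound by NF-Y, and their sequences are shown because Ciita works through them. RefSeq promoters were used for 4 of the 7 genes, H2-Aa, H2-Eb1, H2-DMa and H2-DMb1. No usable entry was found for H2-Ab1 and Ciita, and Cd74 was left out of this description. The lines give the 150 bases before the start site on GRCm38.p6, 5′ to 3′ on the coding strand, for H2-Aa (chr17:34287824-34287973, minus strand) and H2-Eb1 (chr17:34305717-34305866, plus strand). H2-Eb2 (chr17:34325525-34325674, plus strand), a neighbouring class II beta chain gene that is no member, is set beside them because it shares the letters of H2-Eb1.
H2-Aa: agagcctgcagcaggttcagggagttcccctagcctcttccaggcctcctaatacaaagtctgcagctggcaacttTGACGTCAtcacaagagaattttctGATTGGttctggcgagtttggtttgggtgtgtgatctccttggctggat
H2-Eb1: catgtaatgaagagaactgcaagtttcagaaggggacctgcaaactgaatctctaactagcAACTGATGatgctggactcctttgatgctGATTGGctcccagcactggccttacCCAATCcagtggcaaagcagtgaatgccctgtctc
H2-Eb2: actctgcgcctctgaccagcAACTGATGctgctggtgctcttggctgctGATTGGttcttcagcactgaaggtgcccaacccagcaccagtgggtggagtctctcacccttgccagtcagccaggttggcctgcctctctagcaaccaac
Capitals mark GATTGG, the core of the Y box (CCAATC on the other strand), AACTGATG, letters of the X box that were read from these promoters, and the palindrome TGACGTCA. Both strands were searched, and no 2 marked stretches overlap. GATTGG lay 49 bases before the start in H2-Aa, 60 in H2-Eb1, 101 in H2-Eb2 and 62 in H2-DMb1. AACTGATG preceded it with 21 bases between them in H2-Eb1 and in H2-Eb2, and with 22 in H2-DMb1. AACTGATG was not among the letters of the H2-Aa promoter, which held TGACGTCA 74 bases before the start. Of the 2 RefSeq windows of H2-DMa, 1 held GATTGG, 199 bases before its start, and neither held AACTGATG. Over 32851 promoters of 300 bases, 16.11% held GATTGG, 0.7762% held AACTGATG, 1.79% held TGACGTCA, and 36 (0.1096%) held both of the first pair. These matches describe letters and no binding was measured.

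By the GENCODE annotation of GRCm38, the build to which the authors aligned (mm10), 5 of the 7 genes lie close together on chromosome 17, in the mouse MHC. H2-DMa spans 34119541 to 34139101 and H2-DMb1 34153072 to 34160230, followed by H2-Ab1 from 34257689 to 34269419, H2-Aa from 34282744 to 34287823 and H2-Eb1 from 34305867 to 34316674. H2-Aa lies on the minus strand and the others on the plus strand. Cd74 lies on chromosome 18 (60803848 to 60812652) and Ciita on chromosome 16 (10480059 to 10528418). The annotated span of H2-DMa overlaps Brd2 and other transcripts, those of H2-Eb1 and Ciita overlap the antisense Gm20513 and Dexi, and that of Cd74 holds a microRNA gene. Whether the counting used strand is not given in the sources used here, so the counts of H2-DMa in particular are uncertain.

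The first comparison asked how class II transcripts in fibrotic spots differed between 7 and 21 dpi in wild-type mice. H2-Aa, H2-Ab1, H2-Eb1 and Cd74 were all higher at 21 dpi, by 2.90- to 4.66-fold. They passed edgeR's quasi-likelihood test on summed UMIs at a Benjamini-Hochberg adjusted p under 0.05 over 13289 genes tested, which is what "called" means below, and the other 3 genes were not called. So 4 of 7 genes were called, all higher, where 4.39% of all genes tested were called in either direction (2.50% higher and 1.90% lower). All 7 had an unadjusted p under 0.05, a level for which no share over all genes was counted, here or below. The median log2 fold change was 1.70 over the 7 genes and -0.02 over all genes tested.

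The chain genes H2-Aa, H2-Ab1 and H2-Eb1 were all higher at 21 dpi. Only transcripts were counted, and no class II protein was measured. H2-Aa stood at 0.461 and 0.965 UMIs per 10000 in the fibrotic spots of the 7 dpi slices and at 3.76 and 2.64 in those at 21 dpi. Every slice at 21 dpi lay above both at 7 dpi, with a log2 fold change of 2.03 (SE 0.27, edgeR adjusted p = 0.00275), or 4.08-fold. The share of all genes whose slices lie apart in this way was not counted, here or below. H2-Ab1 stood at 0.897 and 1.06 at 7 dpi and at 3.46 and 2.40 at 21 dpi, again without overlap (log2 fold change 1.54, SE 0.20, edgeR adjusted p = 0.00205). H2-Eb1 stood at 0.307 and 0.658 and then at 2.12 and 1.42 (log2 fold change 1.70, SE 0.28, edgeR adjusted p = 0.00835). The slices at 7 dpi lay further apart for H2-Aa, at 0.713 ± 0.357 (SD, n = 2), than for H2-Ab1, at 0.977 ± 0.112 (SD, n = 2).

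Cd74, the invariant chain, had the largest difference of the 7 genes. Its level reached 0.508 and 1.12 in the slices at 7 dpi, and 4.49 and 3.80 in those at 21 dpi, so that the lower slice at 21 dpi was above the higher at 7 dpi. The log2 fold change was 2.22 (SE 0.26, edgeR adjusted p = 0.00140), or 4.66-fold. The calls of Cd74 and the 3 chain genes held under all 13 alternative settings, each slice left out in turn included. Without slice 2 at 7 dpi the log2 fold changes were 2.75 for H2-Aa, 2.48 for H2-Eb1 and 2.98 for Cd74.

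The H2-DM genes, which edit the bound peptide, differed less. H2-DMa stood at 0.295 and 0.314 at 7 dpi and at 0.496 and 0.547 at 21 dpi. These slices did not overlap either, but the log2 fold change of 0.74 (SE 0.19, edgeR adjusted p = 0.0529) missed the threshold, and it passed under 3 of 13 alternative settings. H2-DMb1 stood at 0.272 and 0.298 and then at 0.429 and 0.385 (log2 fold change 0.47, SE 0.19, edgeR adjusted p = 0.216). Ciita, the transactivator, was sparse, with 1 and 7 UMIs in the fibrotic spots at 7 dpi and 12 and 16 at 21 dpi. Those counts are 0.0118 and 0.0159 per 10000 against 0.0536 and 0.0561 (log2 fold change 1.81, SE 0.52, edgeR adjusted p = 0.0821). Slice 1 at 7 dpi rests on a single Ciita UMI, with an exact Poisson interval of 0.000299 to 0.0658 per 10000 that covers counting error only.

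**Figure D1:**
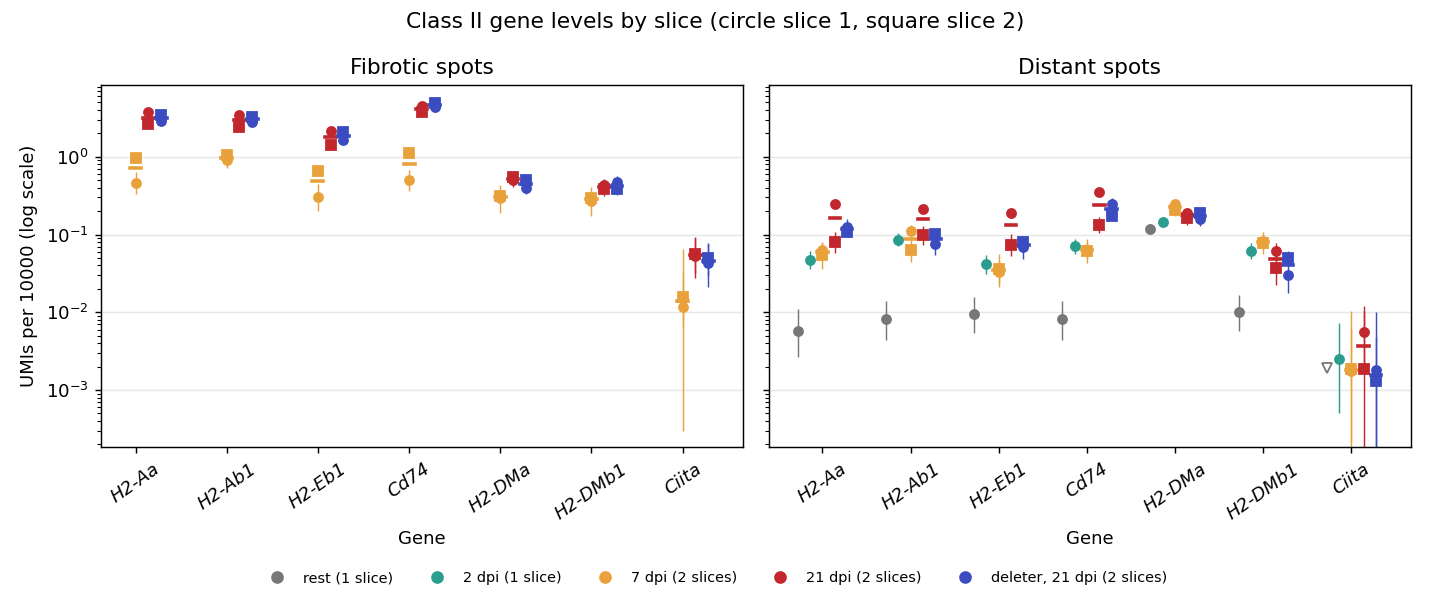
UMIs per 10000 of each class II gene in fibrotic and in distant spots, on a log axis, with 1 point per slice, exact 95% Poisson intervals (counting error only) and short bars for the mean of 2 slices. An open triangle is the level of 3 UMIs where none was counted, and fibrotic levels at rest and 2 dpi are left out. In fibrotic spots H2-Aa, H2-Ab1, H2-Eb1 and Cd74 lie at 0.307 to 1.12 at 7 dpi and at 1.42 to 4.92 at 21 dpi in wild-type and deleter slices.

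The other genes of class II presentation went in both directions in this comparison. Of all genes tested 2.50% were called higher and 1.90% lower. Of 33 listed pathway genes, 30 were in the files and 26 were tested in fibrotic spots. Between 7 and 21 dpi 1 was higher, the interferon gamma receptor chain Ifngr1 (log2 fold change 0.70, edgeR adjusted p = 0.0469), and 2 were lower, the lysosomal protease Ctsd (-0.73, 0.0359) and the costimulatory gene Cd86 (-0.82, 0.0328). The other 23 were not called, among them the RFX subunits Rfx5, Rfxap and Rfxank (log2 fold changes 0.26, 0.10 and 0.20), the invariant chain protease Ctss (0.50, edgeR adjusted p = 0.0996), and Irf1, which acts downstream of interferon gamma (0.78). The median over the 26 was -0.08. Ifng itself had 0 to 2 UMIs in the fibrotic spots of each slice. The neighbouring class II gene H2-Eb2, whose promoter is printed above, had 0 and 0 UMIs at 7 dpi and 2 and 3 at 21 dpi and was not tested. The class I genes H2-K1, H2-D1 and B2m, which present to CD8+ T cells, were not called (log2 fold changes -0.39, 0.28 and -0.23).

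Marker genes of cells that can carry class II were read in the same fibrotic spots, and their part in the difference was not tested. The 6 pan-myeloid markers summed to 54.6 and 48.4 UMIs per 10000 at 7 dpi and to 43.8 and 44.6 at 21 dpi, with only Cd68 called, lower. None of 6 microglial markers was called (sums 24.7 and 18.7, then 13.8 and 15.8). Of 6 border macrophage markers, the mannose receptor Mrc1 was called higher (log2 fold change 1.17) and Pf4 lower (-1.25), and of 4 monocyte markers Ly6c2 and Plac8 were called lower. The 9 dendritic cell markers summed to 0.461 and 0.740 at 7 dpi and to 1.73 and 1.11 at 21 dpi, with none of the 6 tested called. Most of those UMIs were Itgax, which macrophages also express, while Xcr1 and Clec9a, which mark cross-presenting dendritic cells, had 0 to 5 and 0 to 10 UMIs per slice. The 5 B cell markers summed to 0.130 and 0.0637 at 7 dpi and to 0.103 and 0.0491 at 21 dpi, and the 1 tested was not called. Of these, Cd79b had 10 and 26 UMIs at 7 dpi and 14 and 11 at 21 dpi, Cd79a 0 and 1 and then 6 and 3, and Ms4a1 0 to 2 in each of the 6 slices. The 6 plasma cell markers summed to 0.272 and 0.259 at 7 dpi and to 14.6 and 22.6 at 21 dpi, with Jchain, Igkc and Igha called higher. The 7 T cell markers summed to 0.0945 and 0.157 and then to 0.469 and 0.445, and of the 6 tested only Cd3d was called, higher. Of 6 fibroblast markers 2 were called, both higher, while the sums of 38.5 and 64.4 at 7 dpi overlapped those of 63.3 and 76.9 at 21 dpi. Of the markers of other tissue cells, 3 of 4 for astrocytes were called higher and 1 of 4 for neurons lower, with 0 of 4 for endothelium and 0 of 3 for oligodendrocytes.

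The second comparison asked how class II transcripts were distributed around the fibrotic tissue. All 7 genes were higher in fibrotic than in distant spots of the same slices at 7 dpi, at 21 dpi and in deleter slices. In this fit, with zones summed per slice and the slice as a block, 50.0% of 14235 genes tested were called at 7 dpi in either direction (26.0% higher and 23.9% lower), 57.6% at 21 dpi (29.3% and 28.2%) and 57.7% in deleter slices (30.0% and 27.7%). The median log2 fold change over the 7 genes was 3.57, 3.90 and 4.63 in these groups, against -0.01, 0.00 and 0.02 over all genes tested.

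The chain genes and Cd74 were 11.9- to 32.7-fold higher in fibrotic than in distant spots over the 3 groups. H2-Aa stood at 0.0631 and 0.0543 in distant spots at 7 dpi, 13.8-fold under the fibrotic level (log2 fold change 3.79, SE 0.36, edgeR adjusted p = 6.90e-07), and at 0.246 and 0.0791 at 21 dpi, 21.7-fold under it (4.44, SE 0.31, edgeR adjusted p = 1.05e-08). Cd74 stood at 0.0640 and 0.0618 in distant spots at 7 dpi and at 0.352 and 0.132 at 21 dpi, with log2 fold changes of 3.81 (SE 0.35) and 4.24 (SE 0.30) to the fibrotic level. In no slice did the distant level of either gene reach the fibrotic level of any slice. For H2-Ab1 the log2 fold changes were 3.57 and 4.36 at 7 and 21 dpi and for H2-Eb1 3.97 and 3.90. In deleter slices these 4 genes were 4.50 to 5.03 higher on the log2 scale.

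H2-DMb1 and H2-DMa were spread more evenly. H2-DMb1 was 2.06 higher on the log2 scale in fibrotic than in distant spots at 7 dpi (SE 0.32) and 3.08 at 21 dpi (SE 0.31). H2-DMa was 0.60 higher at 7 dpi (SE 0.22, edgeR adjusted p = 0.0346) and 1.59 at 21 dpi (SE 0.21), and its distant level was 0.244 and 0.208, then 0.191 and 0.165. The call of H2-DMa at 7 dpi was lost in 4 of 14 alternative settings, with DESeq2, with library size alone, and without either slice at 7 dpi (edgeR adjusted p = 0.118 and 0.539). Ciita was 2.97 higher at 7 dpi on 8 fibrotic and 3 distant UMIs (SE 1.15, edgeR adjusted p = 0.0421), a call lost in 6 of 14 settings, and 3.69 higher at 21 dpi (SE 0.76) and 4.67 in deleter slices (SE 0.83).

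Most of the listed pathway genes also stood higher in fibrotic spots. Of 26 tested, 17 were called higher and 1 lower at 7 dpi, and 18 and 1 at 21 dpi, with a median log2 fold change of 1.63 and 2.10. At 21 dpi the lysosomal thiol reductase Ifi30 (3.48), Ctss (3.32) and the myeloid factor Irf8 (2.85) were among those higher, the NF-Y subunit Nfyb was lower (-0.87), and Rfx5 stood at 0.01. The class I genes H2-K1, H2-D1 and B2m were called higher in all 3 groups, by 3.39, 3.06 and 2.77 at 21 dpi.

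Counted as shares, the summed UMIs of H2-Aa, H2-Ab1, H2-Eb1 and Cd74, called the class II sum below, were concentrated in fibrotic spots. At 7 dpi 25.0% and 80.6% of them fell there, in spots with 5.64% and 32.5% of all UMIs. At 21 dpi the shares were 55.8% and 80.8%, in spots with 12.8% and 25.2% of all UMIs, and in deleter slices 61.0% and 72.5%. Within distance 3 of fibrotic spots lay 58.1% and 94.4% of the class II sum at 7 dpi, 80.6% and 94.3% at 21 dpi, and 94.1% and 89.8% in deleter slices. Slice 1 at 7 dpi, with the fewest fibrotic spots of these 6, had the lowest share on both counts. Of the H2-DMa UMIs 6.05% to 46.0% fell in fibrotic spots over the 6 slices, in spots with 5.64% to 32.5% of all UMIs.

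**Figure D2:**
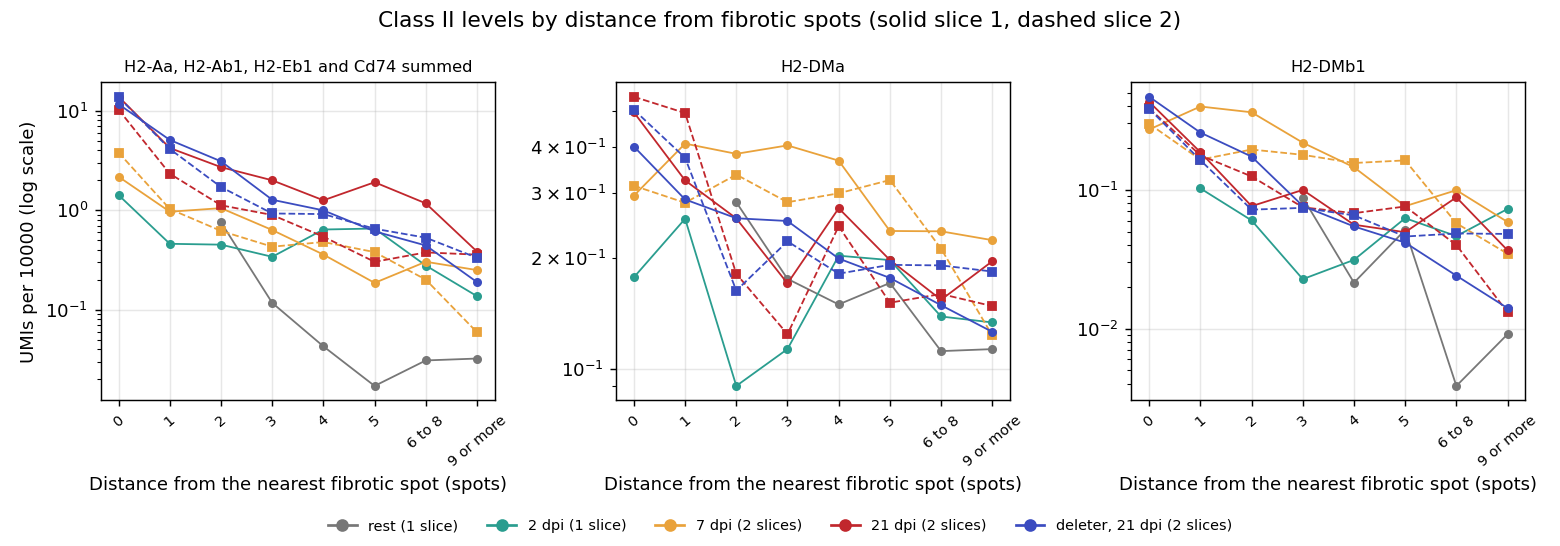
UMIs per 10000 of the class II sum, H2-DMa and H2-DMb1 on log axes against the distance from the nearest fibrotic spot in spots, with 1 line per slice and distances of at least 20 spots shown. In slice 1 at 21 dpi the class II sum stands at 13.8 at distance 0, at 1.91 at distance 5 and at 0.385 at distance 9 or more, and H2-DMb1 in slice 1 at 7 dpi is highest at distance 1, at 0.398.

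The level fell off over the first spots beyond the fibrotic tissue. The class II sum was 2.17 and 3.80 UMIs per 10000 in fibrotic spots at 7 dpi, 0.967 and 1.03 in adjacent spots, 0.842 and 0.533 in near spots and 0.271 and 0.215 in distant spots. At 21 dpi it was 13.8 and 10.3, then 4.23 and 2.33, 2.36 and 1.01, and 1.00 and 0.382. In each of the 4 slices every zone was lower than the zone before it. H2-DMb1 departed from this order in slice 1 at 7 dpi, where adjacent spots held 0.398 and fibrotic spots 0.272, and H2-DMa in the same slice stood at 0.408 in adjacent and 0.295 in fibrotic spots.

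Adjacent spots were higher than distant ones for 5 of 7 genes at 7 dpi, where 22.0% of all genes tested were called in either direction (13.6% higher and 8.44% lower). The log2 fold changes were 1.98 for H2-Aa (SE 0.45), 2.10 for H2-Ab1 (SE 0.36), 2.03 for H2-Eb1 (SE 0.55), 2.03 for Cd74 (SE 0.43) and 1.79 for H2-DMb1 (SE 0.35). H2-DMa (0.64, edgeR adjusted p = 0.0651) and Ciita, with 0 and 2 adjacent UMIs, were not called. Not every call was kept without slice 1 or without slice 2 at 7 dpi, which leaves 1 slice in that group. Over 14 alternatives the log2 fold changes were 1.75 to 2.60 for H2-Aa, 1.75 to 2.57 for H2-Ab1 and 1.93 to 2.48 for H2-Eb1. Those of Cd74 were 1.86 to 2.38 and those of H2-DMb1 1.03 to 2.40. Calls over all genes moved as well, with the ranges given at the end. At 21 dpi 6 of 7 were called higher, all but Ciita, where 28.0% of all genes tested were called in either direction (15.3% higher and 12.7% lower). The calls of H2-DMa and H2-DMb1 were lost without slice 2 at 21 dpi. Over the alternatives their log2 fold changes were 0.79 to 1.56 and 1.64 to 2.24. The log2 fold changes of the 6 ran from 1.17 for H2-DMa (SE 0.23) to 2.42 for Cd74 (SE 0.30).

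Whether the fibrotic-to-distant difference itself changed between 7 and 21 dpi was tested as an interaction, and 0 of 7 genes were called, where 0.674% of all genes tested were called (0.597% higher and 0.0773% lower). At an unadjusted p under 0.05 there were 2, H2-DMa and H2-DMb1, and DESeq2 also called 0. The differences of log2 fold changes were 0.65 for H2-Aa (95% interval -0.35 to 1.66), 0.43 for Cd74 (-0.54 to 1.41), -0.06 for H2-Eb1 (-1.03 to 0.91) and 0.99 for H2-DMa (0.35 to 1.63, edgeR adjusted p = 0.145). The intervals of the chain genes and Cd74 all held 0.

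**Figure D3:**
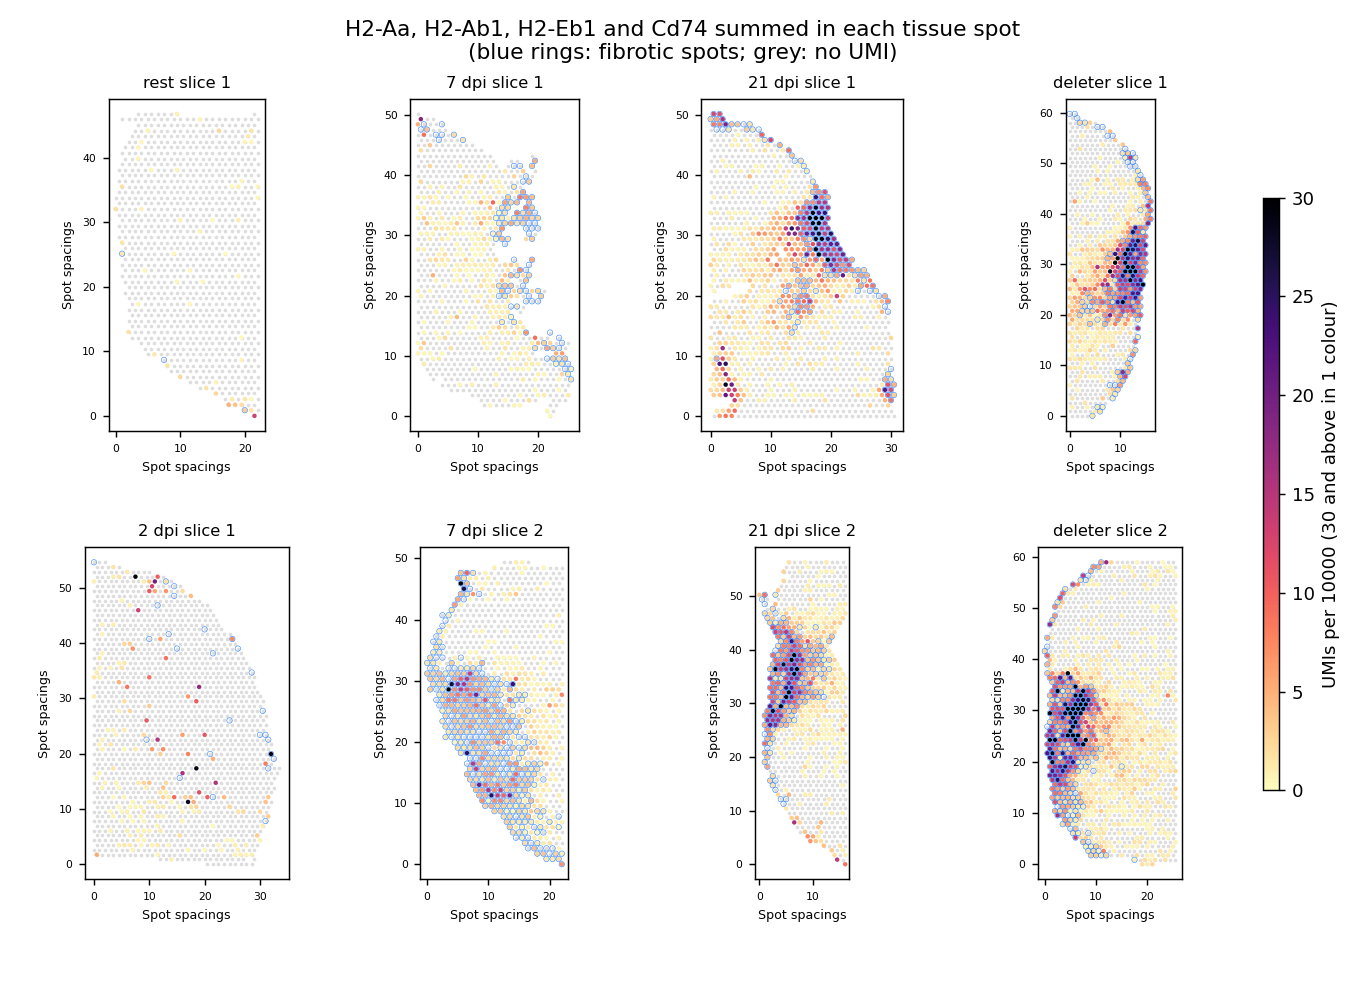
Summed UMIs per 10000 of H2-Aa, H2-Ab1, H2-Eb1 and Cd74 in each tissue spot of the 8 slices, axes in spot spacings, colours from 0 to 30 with higher values in the same colour. Blue rings mark fibrotic spots and grey marks spots without such a UMI. Dark spots fill the fibrotic patches at 21 dpi, where 70 of 170 and 60 of 203 fibrotic spots reach 10, against 0 of 112 and 22 of 392 at 7 dpi, and slice 1 at 21 dpi has 24 such spots outside fibrotic spots.

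Away from fibrosis the same 4 genes were on average higher at 21 than at 7 dpi, but no difference was called. In distant spots 0 of the 6 genes tested were called by edgeR, where 0.0204% of 14738 genes tested were, and 3 had an unadjusted p under 0.05. DESeq2 called 2, and its share over all genes is not given here. Over the alternative settings 0 to 981 of all genes were called in distant spots. H2-Eb1 stood at 0.0333 and 0.0356 at 7 dpi and at 0.189 and 0.0735 at 21 dpi (log2 fold change 1.98, SE 0.45, edgeR adjusted p = 0.227). Cd74 had a log2 fold change of 1.98 (SE 0.46, edgeR adjusted p = 0.233) and H2-Aa one of 1.50 (SE 0.49, edgeR adjusted p = 0.353). The slices at 21 dpi lay apart here, slice 1 with a class II sum of 1.00 and slice 2 with 0.382. Without slice 1 at 21 dpi the log2 fold changes were 0.42 for H2-Aa, 0.13 for H2-Ab1, 1.11 for H2-Eb1 and 1.08 for Cd74, and without slice 2 they were 2.05, 1.28, 2.47 and 2.48. DESeq2 called Cd74 (1.97, adjusted p = 0.00487) and H2-Eb1 (1.97, adjusted p = 0.0205). H2-DMa and H2-DMb1 were lower at 21 dpi in the distant fit (-0.33 and -0.68), neither called.

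Over whole slices 0 of 7 genes were called by edgeR or DESeq2, where edgeR called 0.00629% of 15907 genes tested, and 4 had an unadjusted p under 0.05. H2-Aa stood at 0.109 and 0.367 at 7 dpi and at 0.832 and 0.814 at 21 dpi (log2 fold change 1.75, SE 0.50, edgeR adjusted p = 0.263). Cd74 stood at 0.123 and 0.450 and then at 1.07 and 1.21 (log2 fold change 1.94, SE 0.54, edgeR adjusted p = 0.248). The slices at 7 dpi, of which 5.64% and 32.5% of UMIs were in fibrotic spots, lay further apart than those at 21 dpi. Without slice 1 at 7 dpi the log2 fold changes were 1.11 for H2-Aa and 1.29 for Cd74, and without slice 2 they were 2.91 and 3.19.

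The third comparison set deleter against wild-type slices at 21 dpi. It shares the wild-type slices with the comparison of 7 and 21 dpi, and since each group lay on its own capture area, area and genotype cannot be told apart. In fibrotic spots 0 of 7 genes were called by edgeR or DESeq2, none had an unadjusted p under 0.05, and 0.0226% of all genes tested were called (0.00753% higher and 0.0151% lower). H2-Aa stood at 2.89 and 3.44 UMIs per 10000 in deleter slices against 3.76 and 2.64 (log2 fold change -0.00, 95% interval -0.55 to 0.54). Cd74 stood at 4.32 and 4.92 against 4.49 and 3.80 (0.17, -0.36 to 0.69). H2-Ab1 had 2.76 and 3.26 (0.05, -0.35 to 0.46) and H2-Eb1 1.67 and 2.09 (0.10, -0.47 to 0.66). For these 4 genes the deleter slices overlapped the range of the wild-type slices, and the intervals reached 0.69 on the log2 scale at most. H2-DMa stood at 0.401 and 0.504 (-0.19, -0.57 to 0.19), H2-DMb1 at 0.467 and 0.383 (0.07, -0.32 to 0.45) and Ciita at 0.0428 and 0.0496 (-0.23, -1.12 to 0.66). The deleter slice with 1033 Xist UMIs and the one with 19 had class II sums of 11.6 and 13.7 in fibrotic spots, and both lay above the slices at 7 dpi.

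**Figure D4:**
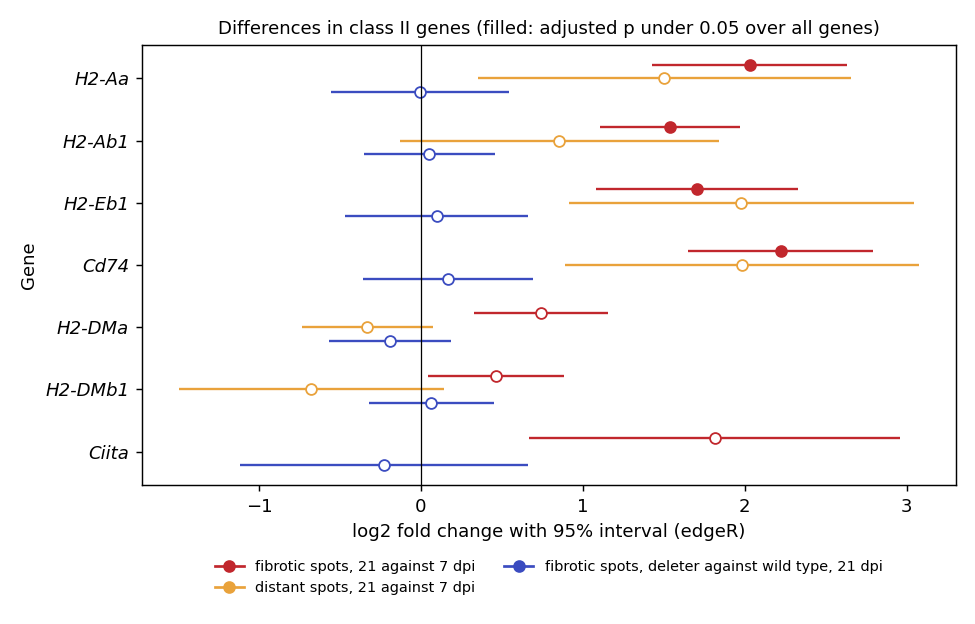
log2 fold changes of each class II gene with 95% intervals from edgeR for 3 comparisons (21 against 7 dpi in fibrotic spots, the same in distant spots, and deleter against wild type in fibrotic spots), filled where the adjusted p over all genes was under 0.05. Filled points are H2-Aa, H2-Ab1, H2-Eb1 and Cd74 in fibrotic spots, at 1.54 to 2.22, and all deleter intervals span 0. Ciita was not tested in distant spots.

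Among fibrotic spots the class II sum was uneven. The median spot held 1.65 and 2.15 UMIs per 10000 at 7 dpi, 7.90 and 6.03 at 21 dpi and 7.59 and 7.58 in deleter slices, while the highest spot held 8.43 and 33.7, then 65.4 and 101, and 50.8 and 77.9. Spots at 10 or more made up 0.00% and 5.61% of fibrotic spots at 7 dpi, 41.2% and 29.6% at 21 dpi and 38.3% and 42.0% in deleter slices. At 21 dpi these spots held 84.4% and 71.0% of the class II UMIs of the fibrotic tissue. Fibrotic spots with fibrotic neighbours on all sides held more than those at the rim, 20.9 against 10.0 and 15.7 against 5.53 at 21 dpi, and 5.13 against 2.45 in slice 2 at 7 dpi. Slice 1 at 7 dpi had 5 such inner spots with 7 class II UMIs.

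A count of spots with a Cd74 UMI gave the same order at equal depth. After thinning each spot to 5000 UMIs, 25.9% and 33.1% of fibrotic spots held one at 7 dpi, 74.2% and 66.7% at 21 dpi and 71.5% and 72.6% in deleter slices. In distant spots the thinned shares were 3.11% and 2.02%, 10.4% and 4.96%, and 8.36% and 6.63%. Before thinning the fibrotic shares were 28.6% and 52.0%, 83.5% and 84.2%, and 80.3% and 83.2%, at median depths of 4923.5 to 13879 UMIs. Thinning left out 58 and 57 fibrotic spots at 7 dpi and 14 to 22 in each of the other 4 slices.

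Spots with a high class II sum also held more UMIs of several other lists, as a description of spots that were chosen by their class II level. In the 4 slices at 21 dpi, deleter slices included, fibroblast markers summed to 88.2 to 149 UMIs per 10000 in high spots and to 31.0 to 79.1 in other fibrotic spots, and border macrophage markers to 3.70 to 5.76 against 1.65 to 2.63. Dendritic cell markers summed to 1.68 to 2.37 against 0.711 to 1.08, and pan-myeloid markers to 42.9 to 59.0 against 24.9 to 36.3. Monocyte and T cell lists were also higher in the high spots of all 4 slices, at 0.674 to 0.808 against 0.271 to 0.626 and at 0.549 to 0.899 against 0.328 to 0.630. Microglial markers differed less, at 13.2 to 17.1 against 10.7 to 15.1, and were the same to 3 digits in slice 1 at 21 dpi (13.8). Plasma cell markers were higher in high spots of 3 slices (51.9 against 5.91, 38.0 against 9.68 and 109 against 21.6) and close in slice 1 at 21 dpi (15.3 against 13.8). Neuronal markers were lower in high spots of all 4 slices, at 1.96 to 3.17 against 9.27 to 17.0. So were astrocyte markers, at 11.6 to 14.8 against 22.7 to 29.9, and oligodendrocyte markers, at 7.72 to 16.2 against 36.4 to 141. Endothelial markers were close, at 1.53 to 2.19 against 1.50 to 1.93. B cell markers, with few UMIs, were lower in high spots of slice 1 at 21 dpi (0.0713 against 0.144) and higher in those of the other slices. High spots were also deeper, with medians of 13940.5 to 20248.5 against 7514 to 12410 UMIs. In the 22 high spots of slice 2 at 7 dpi, microglial (18.7 against 18.7) and border macrophage markers (3.59 against 3.38) differed little. Fibroblast (91.4 against 62.4), monocyte (2.65 against 0.860) and dendritic cell markers (1.37 against 0.693) were higher there.

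**Figure D5:**
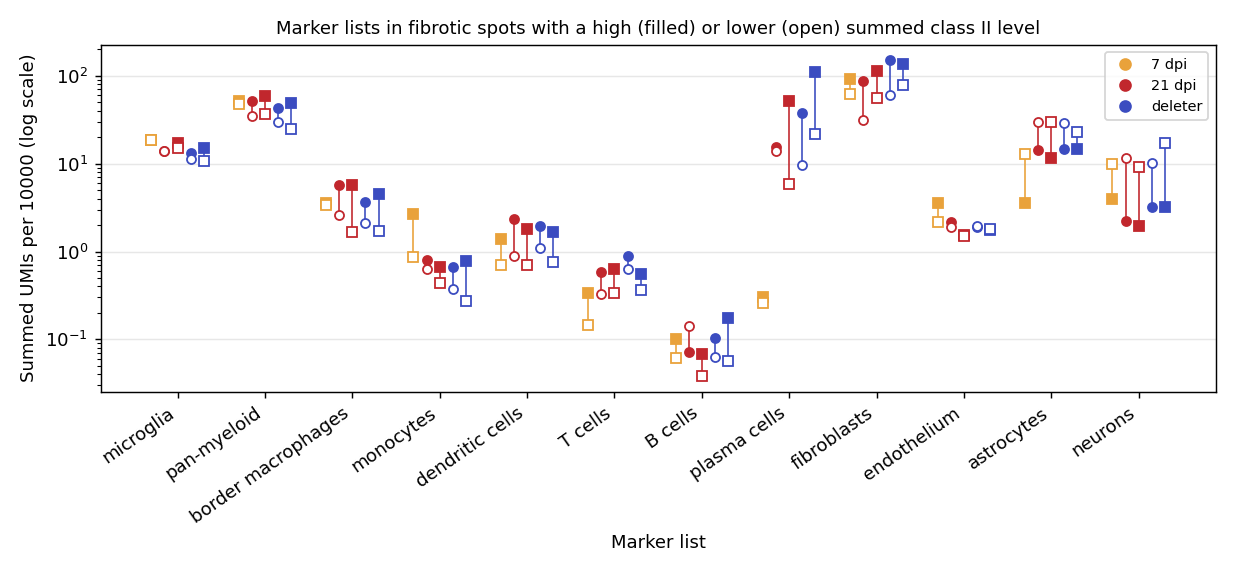
Summed UMIs per 10000 of each cell type marker list other than oligodendrocytes, on a log axis, in fibrotic spots with a class II sum of 10 or more (filled) and in other fibrotic spots (open), joined within a slice, circles for slice 1 and squares for slice 2. Slice 1 at 7 dpi had no high spot. Pan-myeloid, border macrophage, monocyte, dendritic cell, T cell and fibroblast markers lie higher and astrocyte and neuron markers lower in the high spots of the 4 slices at 21 dpi.

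At rest and at 2 dpi there was 1 slice each, so values carry exact Poisson intervals for counting error only and no test was made. At rest class II transcripts were scarce. The class II sum was 77 UMIs among 16355749, or 0.0471 per 10000 (0.0372 to 0.0588), with 17 UMIs of H2-Aa, 15 of H2-Ab1, 22 of H2-Eb1 and 23 of Cd74. Of those 77 UMIs 35.1% lay within distance 3 of the 3 fibrotic spots, among 3.96% of all UMIs. The level was 0.415 at distance 1, 0.756 at distance 2 (16 UMIs) and 0.0323 at distance 9 or more. Distance 1 was 10 spots with 72293 UMIs of all genes, and no intervals are given for these levels by distance. H2-DMa was the exception at 196 UMIs, or 0.120 per 10000 (0.104 to 0.138). Ciita had 1 UMI and H2-DMb1 19.

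At 2 dpi the class II sum was 343 UMIs, or 0.262 per 10000 (0.235 to 0.291), above the resting slice in every one of its 4 genes. H2-Aa was at 0.0535 against 0.0104 at rest, H2-Ab1 at 0.0848 against 0.00917, H2-Eb1 at 0.0428 against 0.0135 and Cd74 at 0.0810 against 0.0141. None of these pairs of intervals overlapped, and the share of all genes whose intervals lie apart was not counted. The UMIs at 2 dpi were clumped, which these intervals do not cover. The highest distant spot held 11 of 70 H2-Aa, 17 of 111 H2-Ab1, 9 of 56 H2-Eb1 and 16 of 106 Cd74 UMIs. H2-DMb1 was at 0.0611 against 0.0116 with 80 and 19 UMIs, and H2-DMa at 0.144 (0.124 to 0.166) against 0.120 (0.104 to 0.138), with overlapping intervals. Of the class II sum 13.7% lay within distance 3 of the 26 spots called fibrotic, in 540 spots that held 7.83% of all UMIs. Those 26 spots had a median depth of 1309 UMIs, at which a single Col1a1 UMI passes the Col1a1 minimum. The alternative of at least 2 Col1a1 UMIs was run on fits that leave this slice out. The share therefore need not describe nearness to fibrotic tissue. By depth, spots of 1000 to under 5000 UMIs held 0.487 per 10000 (0.375 to 0.622) and deeper spots 0.234 (0.207 to 0.264). Ciita had 3 UMIs.

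The 4 genes of the class II sum did not keep one ratio to each other. In fibrotic spots there were 1.95 and 1.09 H2-Ab1 UMIs per H2-Aa UMI at 7 dpi, 0.920 and 0.911 at 21 dpi and 0.957 and 0.950 in deleter slices. The ratio was higher in both slices at 7 dpi than in any of the 4 at 21 dpi. Slice 1 at 7 dpi rests on 76 H2-Ab1 and 39 H2-Aa UMIs, and no intervals or tests were made for the ratios. H2-Eb1 stayed at 0.539 to 0.682 per H2-Aa UMI, and Cd74 went from 1.10 and 1.16 at 7 dpi to 1.20 to 1.50 in the later slices. These ratios compare slices, and they do not compare the genes' transcript numbers, since capture can differ between genes.

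Over the 24 sums of 4 zones in 6 slices, the pattern most like the class II sum was that of Serping1, the inhibitor of complement C1 (Pearson r of log2 levels 0.98). The next were C1s1 (0.97), C1ra (0.96), Txnip (0.96), the complement gene C2 (0.96), Gpx3 (0.95), the myeloid lectin Clec4a3 (0.95), the laminin Lamb2 (0.94), Mmp3 (0.94) and Mxra8 (0.94), out of 14228 genes compared. Among the members themselves H2-DMa reached 0.69, H2-DMb1 0.73 and Ciita 0.78. The sums share mice, capture areas and the fibrotic-to-distant axis, so these correlations describe likeness only and carry no p. Serping1 stood at 1.29 and 1.97 UMIs per 10000 in fibrotic spots at 7 dpi and at 6.07 and 4.81 at 21 dpi, values that were among the sums by which it was chosen.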

How the data were processed

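The authors deposited UMI counts per gene and spot for 4 Visium capture areas, made with Space Ranger 2.0.0 on mm10 per the submitters' processing notes, and the deposited spot positions (other numbers, used as grid indices). Counts were summed per slice and zone. The slice, taken as 1 mouse, was the replicate. In fits with 1 sum per slice, p-values measure the spread between slices of a group. In the zone fit 4 sums of each slice enter, and the slice block takes up the level of each slice. Those p-values measure how far zone differences vary between slices of a group, and they treat the 4 sums as independent beyond that block. Tests were edgeR 4.0.16 quasi-likelihood fits (R 4.3.3) with TMM and filterByExpr, on 6 slices in 3 groups, with the slice as a block between zones, and Benjamini-Hochberg adjustment over all genes tested. DESeq2 1.42.0 was an alternative. Other alternatives were a Col1a1 minimum of 10 per 10000, at least 2 Col1a1 UMIs, spots of at least 1000 UMIs, distant spots from distance 6, library size alone, no filter on low counts, wild-type slices only, and each slice left out. Python 3.11.15, numpy 2.4.6, scipy 1.17.1, pandas 2.3.3 and matplotlib 3.10.9 were used.

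Named genes were the 7 members, a class II pathway list, 3 class I genes, 13 cell type marker lists, and the 10 genes most alike by Pearson r of log2(UMIs per 10000 + 0.01). The members and lists were chosen with earlier results of these data known. Poisson and binomial intervals are exact at 95% and cover counting error only. On simulated counts for fibrotic spots at 21 against 7 dpi, 92% of 200 genes changed 4-fold were recovered over 13053 genes, with 14 false calls. The simulation gave every gene the same dispersion and changed only genes above a minimum mean count. It therefore does not give the recovery for sparse genes such as Ciita or for genes with a larger spread between slices. Single values of some listed genes are not reported here.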

Additional observations from a re-analysis of the deposited data

How the results depend on the processing

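In fibrotic spots at 21 against 7 dpi the calls of H2-Aa, H2-Ab1, H2-Eb1 and Cd74 were kept under all 13 alternatives (log2 fold changes 1.74 to 2.75, 1.28 to 1.81, 1.40 to 2.48 and 1.91 to 2.98). H2-DMa was called as well with at least 2 Col1a1 UMIs, with library size only and with no filter. In distant spots the log2 fold changes ran from 0.42 to 2.05 for H2-Aa, 0.13 to 1.31 for H2-Ab1, 1.11 to 2.47 for H2-Eb1 and 1.08 to 2.48 for Cd74. There DESeq2 called 2 and no filter called 4 of the class II genes. No filter also called 4 over whole slices and 1, H2-DMa, for the difference of gradients. Calls over all genes in these single settings are not given apart from the ranges below. Leaving out 1 slice, 2 to 5 genes were called in adjacent spots at 7 dpi. Deleter against wild type called 0 of 7 under all 12 alternatives, but directions turned. Leaving out 1 slice gave -0.24 to 0.28 for H2-Aa, -0.19 to 0.35 for H2-Ab1, -0.16 to 0.42 for H2-Eb1 and -0.10 to 0.21 for H2-DMb1, and a Col1a1 minimum of 10 gave -0.0028 for H2-Ab1. H2-DMa over whole slices turned to 0.0037 with library size only and ran from -0.18 to 0.086 with 1 slice left out. Ciita in adjacent spots ran from -2.69 to 2.43 at 7 dpi and from -2.69 to 1.09 at 21 dpi with 1 slice left out. For the difference of gradients H2-Eb1 turned to 0.039 with distant spots from distance 6 and 0.025 with DESeq2, and with 1 slice left out ran from -0.41 to 0.61 and Cd74 from -0.064 to 1.16. The cause was not tested.

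Counts over all genes moved more. They ran from 221 to 1317 (584 as reported) in fibrotic spots at 21 against 7 dpi, 1 to 171 (3) for deleter, 0 to 981 (3) in distant spots, 0 to 436 (1) over whole slices, 3578 to 7430 (7116) for fibrotic against distant spots at 7 dpi, 337 to 4253 (3135) and 879 to 4629 (3989) for adjacent spots at 7 and 21 dpi, and 3 to 811 (96) for the difference. Of 256 levels, 201 moved by less than the spread when taken as a mean over spots. No paired analysis was possible because the groups that were tested lay on separate capture areas and shared no pairing label. Ciita rested on 1 to 18 UMIs in the fibrotic spots of each slice from 7 dpi on.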
